A study of Brassica oleracea with 7 samples.

Results

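Genes whose transcript level is nearly the same in every tissue were examined in Brassica oleracea, the species of cabbage and its relatives. Members were chosen by the measured values themselves. A gene was a member if the lowest of its 7 tissue values lay from 20 to under 100 FPKM and its highest value was at most 1.6 times its lowest. FPKM counts sequenced fragments per kilobase of gene, scaled by the size of the library, so it can be compared between genes. The rule found 49 of 39481 genes, or 0.124%. Because all 7 values of each gene entered the rule, the evenness and the level of the members are described here and are not findings.

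Poly(A)+ RNA was sequenced from bud, flower, silique, leaf, stem, root and callus, with 1 library per tissue. Buds were 0.8 cm long, flowers had opened on the day of sampling, and siliques, the seed pods, were taken 15 days after pollination. The vegetative organs were from plants aged 7 weeks, and all 6 organs grew in a greenhouse at 15 to 25 °C. Callus, an unorganised mass of dividing cells, was kept in tissue culture at 25 °C. The labels name neither a cultivar nor the number of plants behind a library. With single libraries no difference has a replicate check, and no p-value was computed.

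Genes with even transcript levels are often called housekeeping genes. They typically serve processes that every living cell needs, such as protein synthesis, protein turnover, transport between compartments and basic metabolism. In plant studies such genes are used as internal references when a transcript is compared between organs. A gene can look even in FPKM only in relation to the total to which each library was scaled, so evenness always refers to a stated scaling. The table holds gene IDs without names, and 0 of the 39481 IDs matched the 53125 genes of the RefSeq table for the species. No function or sequence is therefore given for any member.

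Few genes of this level were even. Of 1673 genes with a lowest value from 20 to under 100 FPKM, termed genes of the same level below, 49 were within the ratio limit, which is 2.93%. The median highest-to-lowest ratio of all 1673 genes was 3.41, and that of the 49 members was 1.51. Members crowded toward the limit. Their ratios were at most 1.2 in 1 gene, above 1.2 and up to 1.3 in 4, up to 1.4 in 5, up to 1.5 in 13 and up to 1.6 in 26. The count went on rising beyond it, with 39 genes above 1.6 and up to 1.7, so the limit falls on a slope and marks no gap. In a bulk tissue, fewer cells of one type and less RNA per cell cannot be told apart, and an even value may hide opposite differences between cell types.

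**Figure D1:**
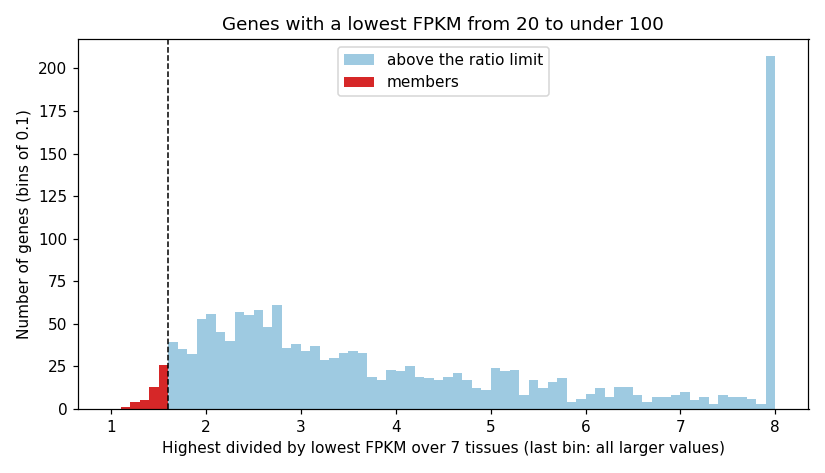
Highest divided by lowest FPKM over the 7 tissues (x axis, in bins of 0.1) for the 1673 genes with a lowest FPKM from 20 to under 100, with the number of genes on the y axis. The 49 members (red) form the left shoulder below the dashed limit of 1.6, and the last bin gathers all larger ratios.

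The share of even genes differed with level. Among all 16005 genes at 1 FPKM or more in every tissue, 178 (1.11%) were within the ratio limit. It was met by 24 of 8381 genes (0.286%) with a lowest value from 1 to under 5 FPKM, by 45 of 3444 (1.31%) from 5 to under 10, and by 58 of 2404 (2.41%) from 10 to under 20. From 20 to under 50 FPKM it was met by 41 of 1404 genes (2.92%), and from 50 to under 100 by 8 of 269 (2.97%). At 100 FPKM and above, 2 of 103 genes (1.94%) met it. Fewer fragments stand behind lower values, and the part of counting error in this gradient was not tested.

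Most members sat in the lower part of the level range, as did most genes of the same level. The lowest value was from 20 to under 50 FPKM in 41 of the 49 members and in 1404 of the 1673 genes. The geometric mean over the 7 tissues had a median of 39.3 FPKM, from 22.8 to 124.9. It was under 30 FPKM in 12 members, from 30 to under 50 in 24, from 50 to under 100 in 10, and 100 or more in 3. Between 62 and 3247 fragments, with a median of 749, stood behind each of the 343 values. In 48 of the 49 members every tissue had at least 100 fragments. The deposited interval reached a median of 7.31% to either side of the value (3.51% to 25.4%).

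**Figure D2:**
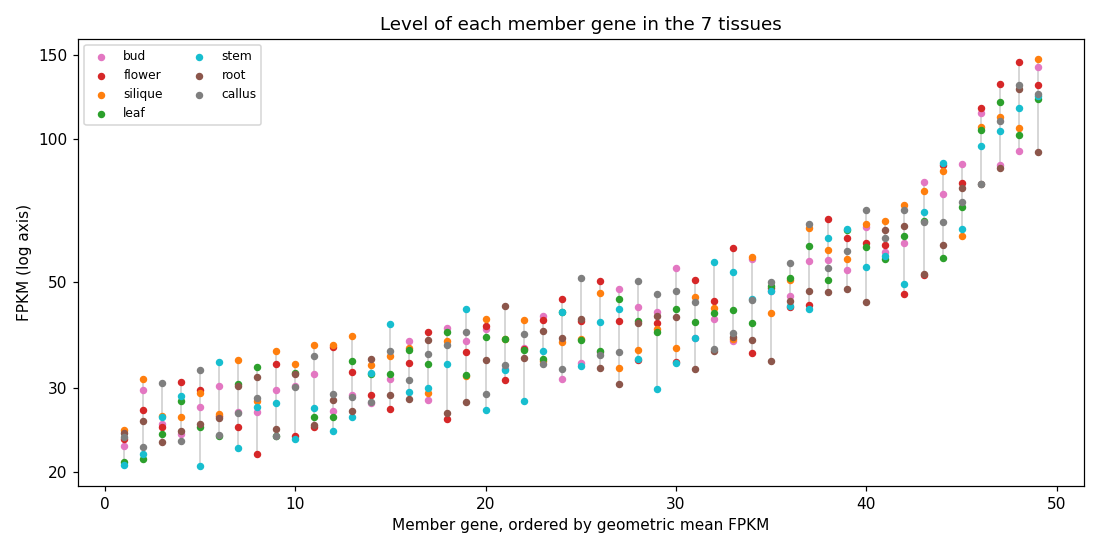
FPKM (y axis, log scale) of each of the 49 members (x axis, ordered by geometric mean) in 7 tissues, 1 library each, with a grey line from the lowest to the highest value. No member spans more than 1.6-fold, and the tissue at the top and at the bottom changes from gene to gene.

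The most even member was Bol016081 (Scaffold000158, 636408 to 641076). Its level was 22.7 FPKM in bud, 23.7 in callus, 23.5 in flower, 21.0 in leaf, 24.1 in root, 24.4 in silique and 20.6 in stem. The ratio of silique to stem was 1.18, or between 1.02 and 1.38 from the facing and the far bounds of the deposited intervals. This gene was also the lowest of all members by geometric mean. The next most even was Bol043177 (Scaffold000005, 745900 to 752005), at 58.0 FPKM in bud, 62.1 in callus, 59.9 in flower, 55.9 in leaf, 64.5 in root, 67.2 in silique and 56.9 in stem. Its ratio was 1.20 (1.12 to 1.30). In both genes silique was highest and root second, while leaf and stem were lowest.

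The members of highest level exceeded 100 FPKM in most tissues. Bol011392 (Scaffold000211, 26150 to 27950) was at 141.8 FPKM in bud, 124.5 in callus, 129.98 in flower, 121.7 in leaf, 93.8 in root, 147.3 in silique and 123.2 in stem. Root alone lay below 100 FPKM and made it a member. Bol023691 (Scaffold000098, 1021750 to 1023284) was at 94.7 FPKM in bud, 130.2 in callus, 145.3 in flower, 101.8 in leaf, 127.7 in root, 105.4 in silique and 116.2 in stem. Here bud alone lay below 100 FPKM. At the other end, Bol009967 (Scaffold000227, 374134 to 378862) had a geometric mean of 25.4 FPKM, with 29.8 in bud, 22.5 in callus, 27.0 in flower, 21.3 in leaf, 25.5 in root, 31.3 in silique and 21.9 in stem.

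Genes on either side of the ratio limit and of the lower level limit differed little. Just inside the ratio limit were Bol013669, with 35.5 FPKM in flower and 56.6 in silique (ratio 1.591), and Bol024723, with 56.2 in leaf and 89.2 in stem (1.587). Just outside were Bol014413, from 20.7 FPKM in stem to 33.3 in flower (1.603), and Bol010984, from 57.4 in stem to 92.0 in silique (1.604). At the lower level limit, Bol002288 and Bol016081 were inside with lowest values of 20.62 and 20.63 FPKM, both in stem. Outside it, Bol024756 and Bol010105 had lowest values of 19.709 FPKM (bud) and 19.708 FPKM (stem). At the upper level limit, the inside members were Bol023691 and Bol011392, given above. The 2 even genes beyond it were Bol000405, from 175 to 253 FPKM, and Bol027879, from 272 to 391 FPKM, well clear of the limit.

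The highest and the lowest tissue of a member mostly differed by more than their deposited intervals, which cover counting error only. Other pairs of tissues were not set against the intervals. In 48 of 49 members the intervals of the highest and the lowest tissue did not overlap. The exception was Bol000219 (Scaffold001056, 1296 to 1734), the member with the shortest coding length, 174 bases, and the fewest fragments. It was at 29.0 FPKM in bud, 28.7 in callus, 32.4 in flower, 34.2 in leaf, 26.9 in root, 38.6 in silique and 26.1 in stem. The ratio was 1.48, but from the interval bounds it ranged from 0.934 to 2.39. Taken at the far bounds of their intervals, 12 of the 49 members stayed within a ratio of 1.6. The highest and the lowest tissue were picked by value in each gene. The count of 48 is not set beside a share over other genes, so it describes the members only.

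On the deposited scaling, the tissue at the top of a member was most often silique and the tissue at the bottom most often root. This rested on the scaling. Under the 4 other scalings tried silique was highest in 1 to 7 members and never the most frequent top tissue. Root was lowest in 22 members per fragment in gene models but in 0 to 3 under the other 3, and it was the most frequent top tissue under upper quartile (24) and trimmed mean (20) rescaling. Silique was highest in 14 of the 49 members and in 8.55% of the genes of the same level. Flower was highest in 10 (16.0% of those genes), callus in 9 (13.6%), bud in 7 (20.7%), stem in 6 (8.01%), root in 2 (11.5%) and leaf in 1 (21.6%). Root was lowest in 14 members (30.0% of the genes of the same level), stem in 12 (11.5%), flower in 10 (26.8%), bud in 5 (5.62%), leaf in 5 (10.8%), callus in 2 (10.8%) and silique in 1 (4.54%). As deposited, leaf was the top tissue of 1 member, while it led more genes of the same level than any other tissue did. All these shares come from the values that chose the members, so nothing further is read from them.

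The summed level of the 49 members was 2308 FPKM in bud, 2308 in callus, 2359 in flower, 2255 in leaf, 2079 in root, 2398 in silique and 2206 in stem. These sums were between 0.347% (bud) and 0.409% (flower) of all FPKM in the library. Relative to each gene's own mean on the log2 scale, the median member was at -0.11 in root and -0.06 in stem. It was at 0.01 in leaf, 0.02 in bud, 0.03 in callus, 0.06 in flower and 0.10 in silique. The spread between members around these medians was smallest in leaf (SD 0.142 over 49 genes) and largest in flower (SD 0.225). Root was also the lowest tissue for the median gene of the same level, at -0.35, while bud was its highest, at 0.26.

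Pairs of tissues differed in how close they lay within members. On the deposited scaling, bud and leaf were the closest of 21 pairs, with a median difference of 1.10-fold in either direction. Bud and silique (1.11-fold) and leaf and root (1.12-fold) followed. The order of pairs was not computed after rescaling. Callus and flower were farthest apart, at 1.24-fold, with 24 members higher in callus and 25 in flower on the deposited scaling. As deposited, silique was higher than root in 36 of 49 members, higher than bud in 36 and higher than stem in 33. After trimmed mean rescaling these counts were 9, 36 and 13, so the direction turned for root and stem. Flower was then higher than callus in all 49, and root was higher than leaf in all 49. Over all genes of the same level the order of pairs was another one, with silique and stem closest (1.34-fold) and bud and root farthest apart (1.85-fold). The most frequent combination of extremes in a member was silique highest and stem lowest, in 7 genes, and next was flower highest and root lowest, in 5.

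On the deposited scaling, some members leaned toward 1 tissue within the limit. The member leaning most toward each is given here with its excess over the geometric mean of the other 6 tissues. These leanings rest on that scaling. After trimmed mean rescaling, bud, callus and leaf were each highest in 0 members. For flower it was Bol011331 (Scaffold000212, 535176 to 537167), at 37.7 FPKM in bud, 39.1 in callus, 59.2 in flower, 43.8 in leaf, 38.4 in root, 38.0 in silique and 52.6 in stem, an excess of 1.43-fold. Stem shared the high level there. For bud it was Bol016900 (Scaffold000151, 909591 to 911943), at 53.6 FPKM in bud, 48.0 in callus, 34.1 in flower, 44.0 in leaf, 42.3 in root, 36.4 in silique and 33.9 in stem, an excess of 1.36-fold. Callus was second in this gene. For callus it was Bol022275 (Scaffold000108, 63128 to 65561), at 33.9 FPKM in bud, 51.0 in callus, 41.5 in flower, 37.8 in leaf, 42.0 in root, 38.0 in silique and 33.4 in stem, an excess of 1.36-fold. As deposited, callus stood apart from the other values, which lay between 33.4 and 42.0 FPKM.

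For stem the leaning member was Bol007892 (Scaffold000254, 281013 to 282399), at 41.8 FPKM in bud, 36.3 in callus, 45.7 in flower, 43.1 in leaf, 35.8 in root, 44.1 in silique and 55.2 in stem, an excess of 1.35-fold. For silique it was Bol012172 (Scaffold000201, 14471 to 15717), at 29.7 FPKM in bud, 23.8 in callus, 33.7 in flower, 23.8 in leaf, 24.6 in root, 35.8 in silique and 27.9 in stem, an excess of 1.33-fold. In the silique gene flower came close behind as deposited. The deposited intervals of bud (26.8 to 32.5 FPKM) and stem (25.2 to 30.7 FPKM) overlapped there. No grouping of organs is therefore read from this gene. For root it was Bol023303 (Scaffold000101, 1371063 to 1373225), at 32.8 FPKM in bud, 33.6 in callus, 31.3 in flower, 38.1 in leaf, 44.7 in root, 38.0 in silique and 32.7 in stem, an excess of 1.30-fold. Leaf leaned least. Its leading member was Bol040305 (Scaffold000014, 2433227 to 2434861), at 26.7 FPKM in bud, 28.5 in callus, 21.8 in flower, 33.2 in leaf, 31.6 in root, 28.1 in silique and 27.3 in stem, an excess of 1.22-fold.

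Which genes count as even rested on how the 7 columns were scaled, while their number stayed between 45 and 53 under the 5 scalings tried. Trimmed mean rescaling lines up the middle of the log ratios of the genes above 0 FPKM in every tissue. It shifted the log2 values by -0.40 in callus, -0.20 in leaf, -0.14 in bud and -0.11 in silique. The shifts were 0.21 in flower, 0.23 in stem and 0.41 in root. Between callus and root that is a factor of 1.75, wider than the ratio limit itself. After this rescaling 50 of 1756 genes of the level met the rule (2.85%), and 11 of them were among the 49 members, which is 22.0% of the new list and 22.4% of the members. The median ratio of the 49 members rose from 1.51 to 1.85. They were chosen for a low ratio as deposited, and that choice favours a rise under another scaling. Callus became the lowest tissue in 35 members, and root was highest in 20, flower in 17, stem in 11 and silique in 1.

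**Figure D3:**
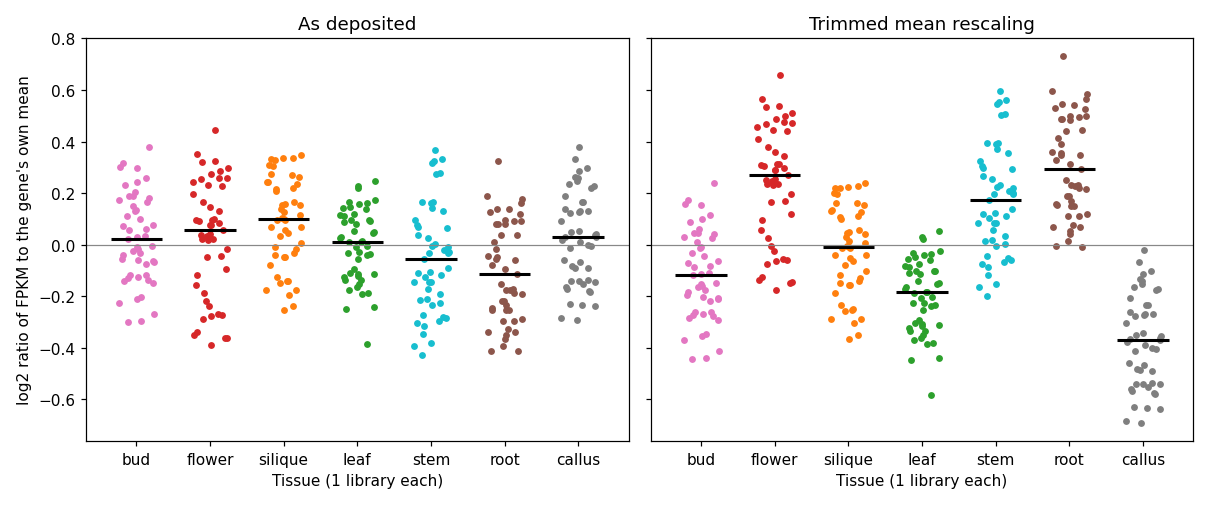
log2 ratio of each member's FPKM to its own mean over 7 tissues (y axis) by tissue (x axis), as deposited (left) and after trimmed mean rescaling (right). Each point is 1 of 49 members and the black bar is the median, which lies between -0.11 and 0.10 as deposited and between -0.37 (callus) and 0.29 (root) after rescaling.

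Other scalings gave other lists. After upper quartile rescaling 53 of 1760 genes met the rule (3.01%), 13 of them members. After rescaling to the fragments in gene models 46 of 1668 did (2.76%), 22 of them members, and after rescaling to equal sums of FPKM 45 of 1715 did (2.62%), 33 of them members. The direction between callus and root also turned. Root was lowest in 14 members as deposited and in 22 per fragment in gene models, but in 0 after either upper quartile or trimmed mean rescaling. Of the 4 most even members as deposited, 3 left the ratio limit after trimmed mean rescaling and 1 did not. Picking them for the lowest deposited ratios also favours a rise. Bol016081 went from a ratio of 1.18 to 1.78 after trimmed mean rescaling, Bol043177 from 1.20 to 1.81, and Bol022400, at 27.9 FPKM in bud and 34.6 in root, from 1.24 to 2.15. Bol043305 went from 1.24 to 1.45 and stayed between 1.28 and 1.45 under the 4 other scalings.

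**Figure D4:**
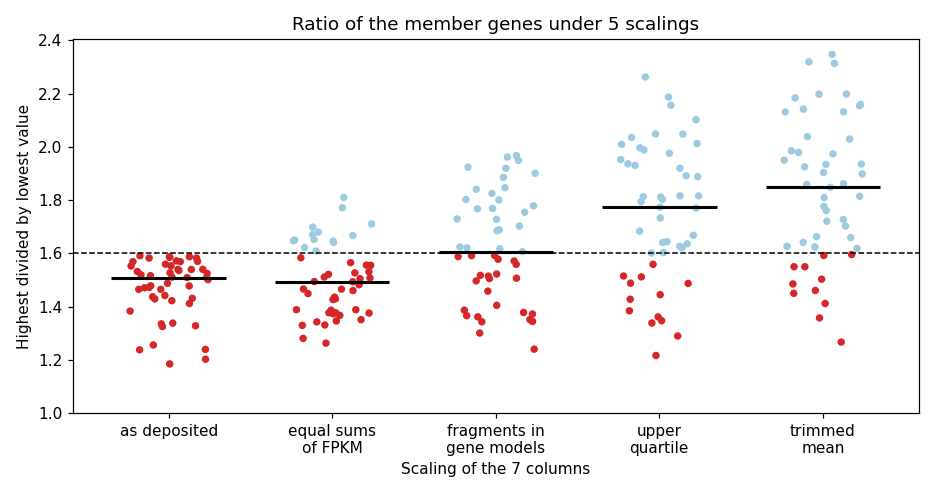
Highest-to-lowest ratio (y axis) of the 49 members under 5 scalings of the columns (x axis). Points at or under the dashed limit of 1.6 are red and black bars are medians. The number within the limit goes from 49 as deposited to 35, 24, 13 and 11.

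Only 6 of the 49 members met the whole rule under each of the 5 scalings, and 9 met the ratio limit under the deposited scaling alone. The 6 were picked out after their values were seen. Bol043305 was at 46.8 FPKM in bud, 54.97 in callus, 44.4 in flower, 51.1 in leaf, 45.7 in root, 50.5 in silique and 44.7 in stem. Bol038761 was at 25.3 FPKM in bud, 30.8 in callus, 24.8 in flower, 24.0 in leaf, 23.1 in root, 26.2 in silique and 26.1 in stem. In both, callus was the highest tissue as deposited. Bol042428 (Scaffold000007, 618753 to 622196) was at 55.4 FPKM in bud, 66.4 in callus, 44.9 in flower, 59.5 in leaf, 47.9 in root, 65.2 in silique and 44.0 in stem. It had the lowest ratio of all members after trimmed mean rescaling, 1.27, against 1.51 as deposited, and Bol023818, with 45.5 FPKM in root and 70.9 in callus, followed with 1.36 against 1.56.

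As deposited, the remaining members that met the rule under every scaling had their lowest value in flower or stem. Trimmed mean rescaling raised the flower, root and stem columns, and passing it was part of the choice. These low values are therefore not read as a trait of the genes. Bol017872 was at 36.4 FPKM in bud, 39.0 in callus, 36.3 in flower, 36.1 in leaf, 34.6 in root, 41.6 in silique and 28.2 in stem. Bol028257 was at 40.1 FPKM in bud, 36.9 in callus, 25.8 in flower, 39.4 in leaf, 26.5 in root, 37.7 in silique and 33.8 in stem. Bol030268 was at 32.1 FPKM in bud, 35.0 in callus, 24.8 in flower, 26.1 in leaf, 25.1 in root, 36.9 in silique and 27.2 in stem. After trimmed mean rescaling the ratio went from 1.48 to 1.55 in Bol017872, from 1.55 to 1.41 in Bol028257 and from 1.487 to 1.503 in Bol030268.

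On the deposited scaling, leaving out root added the most genes. Without root, 137 genes met the rule over the other 6 tissues, 89 of them new, and root was the lowest of the 7 tissues in 68 of the 89 and the highest in 21. Without stem 96 genes met it, without flower 90, without callus 87, without leaf 82, without bud 70 and without silique 66. Leaving out a tissue can only loosen the ratio condition, so a count could fall only through the level limits. Of the added genes, 58 without root were already of the level. This number was 34 without callus, 32 without flower, 25 without leaf, 21 without stem, 18 without bud and 15 without silique. The other added genes had been below 20 FPKM in the tissue left out. Of the members, 48 remained without root, since the lowest value of Bol011392 then became 121.7 FPKM, and 48 without bud, since that of Bol023691 became 101.8 FPKM. After trimmed mean rescaling root was highest in 20 members, and the level of root and the scaling of its column cannot be told apart here.

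Coding length was not used by the rule, and members were longer than other genes of the same level. The length behind FPKM was recovered for all 49 members, with a median of 1398 bases (95% order-statistic interval 1212 to 1710). Over the 1623 genes of the same level above the ratio limit the median was 855 bases (825 to 903), and over the 15973 genes at 1 FPKM or more in all tissues it was 1101 bases. Lengths under 600 bases made up 5 of 49 members (10.2%) against 29.4% of the other genes of the level, and lengths of 1500 bases or more made up 24 (49.0%) against 18.2%. The 2 longest members were Bol001111 (Scaffold000467, 13391 to 22005), with 4602 coding bases, and Bol022400 (Scaffold000108, 928517 to 937376), with 4116. Bol001111 was at 30.2 FPKM in bud, 30.1 in callus, 23.8 in flower, 32.2 in leaf, 32.0 in root, 33.6 in silique and 23.4 in stem, so that flower and stem lay below the other tissues.

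Fragments rise with length at a given FPKM. Over the groups below, the median ratio fell as both rose, while the share of members rose only in the longest group. The genes of the same level were split by coding length into 3 groups of like size. In the shortest group (153 to 651 bases), 8 of 558 were members (1.43%), and the tissue with the fewest fragments had a median of 198. In the middle group (654 to 1182 bases) 8 of 559 were members (1.43%), at a median of 364 fragments. In the longest group (1185 to 5748 bases) 33 of 555 were (5.95%), at a median of 684. The median ratio over all genes of the group was 4.08 in the shortest, 3.41 in the middle and 2.82 in the longest group. The part of counting error in this relation was not tested. Short members did occur, as with Bol015244 (Scaffold000166, 1089070 to 1089815), which has 405 coding bases and was at 88.6 FPKM in bud, 74.0 in callus, 81.1 in flower, 72.0 in leaf, 78.9 in root, 62.8 in silique and 64.8 in stem.

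**Figure D5:**
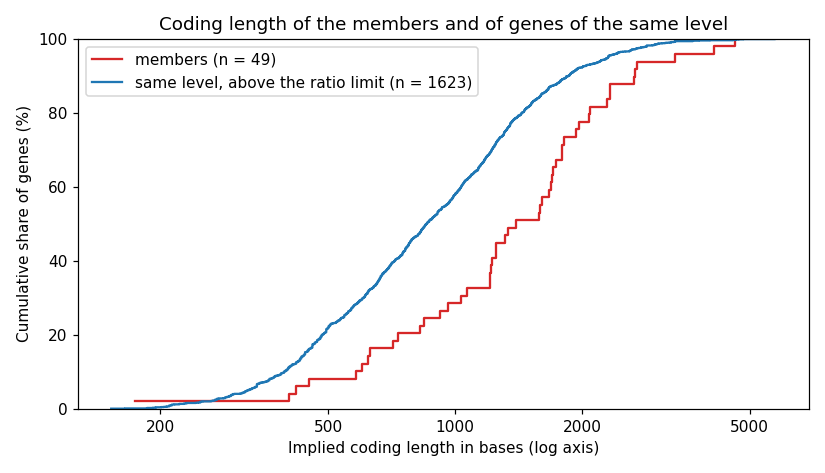
Cumulative share of genes (y axis, %) by implied coding length in bases (x axis, log scale) for the 49 members (red) and the 1623 genes of the same level above the ratio limit (blue). The curve of the members lies to the right over most of the range, with medians of 1398 and 855 bases.

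The loci of members were longer as well, with a median span of 2921 bases (95% order-statistic interval 2163 to 3313) against 1760.5 (1710 to 1819) for the other genes of the level. Coding bases were a median of 49.7% of the locus against 50.1%. None of the 49 members was intronless, meaning that coding length and locus span were equal, and none of the other 1624 genes of the level was either. Of the 16005 genes at 1 FPKM or more in all tissues 0.112% were, against 5.73% of all genes in the table. Whether rows of intronless genes are missing from the table is not known, so the absence cannot be read as a property of the members. Loci overlapped a neighbour in 4 members (8.16%, 95% Wilson interval 3.22% to 19.2%) and in 9.79% of the other genes of the level. Loci of 10000 bases or more were found in 2 members (4.08%) against 1.97%.

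The overlapping loci limit what can be said of 4 members, since no step named in the labels marks strand. Reads cannot be told apart where exons of overlapping genes coincide. Overlap was measured on locus spans, and overlap of exons was not examined. Bol003244 lies with all of its 1816 bases inside the locus of Bol003243, a gene at 0.669 to 6.11 FPKM. Bol021689 overlaps 2 genes whose highest values were 23.7 and 40.7 FPKM. Bol031034, with a locus of 14771 bases, holds Bol031036, which ranged from 26.7 to 352 FPKM. Bol042758, with a locus of 18907 bases and the highest geometric mean after Bol011392 and Bol023691, overlaps 4 genes. The shared stretch was 18907 bases with Bol042756, 18888 with Bol042755, 18888 with Bol042757 and 15432 with Bol042753. Of these, Bol042755 ranged from 40.4 to 65.9 FPKM and missed the ratio limit narrowly, at 1.63. Without the 4 overlapping loci the median coding length of members was 1578 bases.

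Members were scattered over the assembly. They lay on 46 of 699 scaffolds, 43 with a single member and 3 with 2. The closest pair on a scaffold, Bol022275 and Bol022400, was 863 kb apart. These scaffold counts were not compared with those of other small sets of genes. Among the rows of the table no member was adjacent to another, and genes missing from the table could separate those counted as neighbours. Over all genes, members made up only 94 of 77564 neighbours. The lack of adjacent members is therefore not read as a trait of the members. Of the 94 genes next to a member, 44 (46.8%) reached 1 FPKM in all tissues, as did 46.8% of the genes next to other genes of the level. The median ratio of those 44 neighbours was 4.92, against 4.36 next to other genes of the level. Only 1 neighbour of a member (1.06%) had a lowest value from 20 to under 100 FPKM, against 5.28% of the neighbours of other genes of the level.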

How the data were processed

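The authors deposited 1 table of FPKM with a lower and an upper bound for 39481 genes in 7 tissues, per the file headers, which also name the tissue of each column. Per the submitters' processing notes, TopHat 1.0.13 was used. What computed FPKM, on which build and with which annotation, is not given in the sources used here. Positions follow the table and count from 1.

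The upper bound was taken to lie 2 standard deviations of a count above the value. This implied the fragments behind each value (whole within 0.02, or a wider limit at high counts, for 88.8% of 215412 values above 0) and 8458621 to 10597573 fragments in gene models per library. The library's divisor was first the most frequent value when locus span stood for length, as holds for genes without introns. It was then refined over genes of any structure, with lengths set to the nearest multiple of 3. Dividing fragments by FPKM and by this divisor gave lengths for 37175 genes, of which 99.8% were multiples of 3. They were read as coding lengths without UTRs, although the refinement had itself used multiples of 3. A gene was intronless where length and locus span agreed within 0.2%. PCR copies were not marked, so intervals cover counting error only.

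Shares and medians were computed with Python 3.11.15, pandas 2.3.3 and scipy 1.17.1, and the steps were tested on simulated counts. Trimmed mean rescaling used the genes above 0 in all 7 columns and their log ratios to the mean of these columns. At each end 30% of log ratios and 5% of abundances were trimmed. Upper quartile rescaling used the genes above 0 in any tissue. No test was possible with 1 library per tissue. Members, rule and lists were chosen with earlier results of these data known.

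Named genes are the extremes of ratio, level, length and leaning toward each tissue, those nearest each limit, and the most even after trimmed mean rescaling. The groups by coding length, the adjacent genes and the combination of all 5 scalings were chosen after the values were seen.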

Additional observations from a re-analysis of the deposited data

How the results depend on the processing

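No paired analysis was possible because single libraries leave nothing to pair, and nothing was tested. The number of members, 49, was within 1.5 times of that count under the 4 rescalings (45 to 53), with a pseudocount of 1 (52), with the level set by the geometric mean (63), and without bud (70) or silique (66). It moved to 23 at a ratio limit of 1.5 and 208 at 2, to 107 with a lowest FPKM from 10, and to 179 with no level filter. Leaving out a tissue gave 87 (callus), 90 (flower), 82 (leaf), 137 (root) and 96 (stem). From the facing bounds of the deposited intervals 155 genes of the level met the limit, and from the far bounds 12. Of the 49 members, 13 stayed within the ratio limit after upper quartile rescaling, 11 after trimmed mean rescaling, 24 per fragment in gene models and 35 with equal sums. In the same order, silique was highest in 3, 1, 6 and 7 members, and root lowest in 0, 0, 22 and 3. The median coding length was 1734 bases in the 11 members left after trimmed mean rescaling, and 0% of these overlapped a neighbour. The other counts of members per tissue moved by over 1.5 times in 34 of 48 cases. The ratio of a named member left its interval range in 42 of 84 cases, and it was larger than as deposited in 64. Members were chosen for a low ratio as deposited, and that choice favours a larger ratio under another scaling. The causes of these moves other than fewer tissues, genes or looser limits were not tested. Depth limits the short members most, Bol000219 above all, on 62 fragments in its lowest tissue.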
